A study of Mus musculus with 4 samples.

Results

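Rab GTPases are the small GTP-binding proteins that give the membranes of a cell their address. Members of the family were taken by symbol, as every single-gene probe set whose annotated symbol is Rab followed by a number and at most a letter and a digit. This gave 59 genes with 132 probe sets, of 18193 genes and 45101 probe sets in all, and 38 of the 59 genes had more than 1 probe set. RNA came from sorted CD4 single-positive thymocytes of mice on the B6 background and was hybridised to 4 arrays. The 2 arrays labelled KO came from animals carrying both the CD4-Cre transgene and Cul3fl/fl, and the 2 labelled LM from animals with Cul3fl/fl and no Cre. All of them therefore share the floxed Cul3 alleles, and Cre, driven by the CD4 promoter, is what differs. No array came from animals with Cre and an unfloxed Cul3, so an effect of Cre and an effect of losing Cul3 cannot be told apart. Sorting removed cells positive for CD25, for the CD1d-PBS57 tetramer or for the gamma delta T cell receptor. Neither age nor pooling of animals is stated, and the arrays of a group may come from 1 animal or several, so the p-values here reflect array-to-array spread that could be purely technical.

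A Rab protein switches between a GTP-bound form, which sits on a membrane and recruits effectors, and a GDP-bound form that GDP dissociation inhibitors hold in the cytosol. Exchange factors turn it on, GTPase-activating proteins turn it off, and a geranylgeranyl tail added by a dedicated transferase anchors it. In T cells, Rabs of the recycling pathway return internalised T cell receptors to the surface, and Rab27a acts in the release of cytotoxic granules.

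Signals below are the deposited linear intensities. Differences are KO minus LM on the quantile-normalised log2 scale, given ± SE, and pass at a limma adjusted p below 0.05 over all genes tested. Background is the level that 95% of probe sets for olfactory and vomeronasal receptors, genes of sensory neurons, do not exceed on an array.

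The targeted gene was read first. Cul3 had signals of 5380.2 and 5577.3 on the arrays labelled KO, against 5332.9 and 5724.4 on the LM arrays, which differed by -0.01 ± 0.09 on the log2 scale (SE, adjusted p = 0.994 in limma). The groups overlapped on all 5 Cul3 probe sets, whose differences ran from -0.15 to 0.31. Which part of Cul3 was deleted is not given in the sources used here, so the genotype of an array is taken from its label alone and directions refer to arrays so labelled. Of the 9 CD4 single-positive markers with a probe set, 9 were above background on all 4 arrays, among them Cd4 and Cd3e. Of 4 CD8 lineage markers 4 were also above it on all 4 arrays, with summed signals of 2869 and 2394 on the arrays labelled KO and 2605 and 2546 on the LM arrays. Of 7 double-positive thymocyte markers, a list that shares Cd8a and Cd8b1 with the CD8 list, 5 were, with sums of 4065 and 4206 on the arrays labelled KO and 3528 and 4222 on the LM arrays. Dntt gave the largest part of these double-positive sums, at 2057.7 and 2185.7 on the arrays labelled KO and 1865.1 and 2453.1 on the LM arrays. Rag1 varied within the groups, at 191.6 and 530.6 on the arrays labelled KO and 236.5 and 358.0 on the LM arrays. The part of CD8 lineage and double-positive cells in the results was not tested. Of 5 B cell markers, 0 were above background on all 4 arrays, and of 8 myeloid and dendritic markers 1 was. So were 1 of 4 NK and innate lymphoid markers (Zbtb16), 1 of 5 thymic epithelial markers (Epcam) and 0 of 3 erythroid markers. Zbtb16 had 119.4 and 110.7 on the arrays labelled KO, against 163.9 and 157.6 on the LM arrays, without passing. The groups overlapped for Epcam. Summed signals of the myeloid list were 579 and 816 on the arrays labelled KO and 691 and 760 on the LM arrays, and those of the B cell list were 179 and 265 on the arrays labelled KO and 227 and 259 on the LM arrays. Array correlations over 11255 tested genes were 0.964 for the KO pair and 0.974 for the LM pair, and 0.961 to 0.966 between arrays of different groups. KO replicate 1 thus correlated with the LM arrays (0.966 and 0.965) as closely as with KO replicate 2.

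Rab4a, which drives fast recycling from early endosomes to the plasma membrane, was the 1 Rab gene past the threshold, and it fell. By p Rab4a stood at rank 31 among the 11255 genes tested. As 31 genes passed in all, it was the last gene past the threshold. Its representative probe set (the one with the higher mean) had signals of 268.9 and 463.4 on the arrays labelled KO, against 919.6 and 1023.9 on the LM arrays. Both KO arrays lay below both LM arrays. On the normalised log2 scale the means were 8.53 ± 0.52 on the arrays labelled KO and 9.94 ± 0.12 on the LM arrays (SD, n = 2 each), a difference of -1.41 ± 0.25 (SE, limma adjusted p = 0.0429). The signal was thus 37.7% of that on the LM arrays, with a 95% interval of 25.8% to 55.1%. Leaving out KO replicate 1 ended the call, with a difference of -1.04 and an adjusted p of 0.067 in limma. So did testing all genes with no filter on dim ones (adjusted p = 0.368) and fitting without an intensity trend (adjusted p = 0.407), settings at which 0 of all genes passed and 1247 and 922 lay at an unadjusted p below 0.05. The name of this probe set ends in _s_at, which in the naming of the array's maker marks one that may also hybridise to related transcripts.

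The other Rab4a probe set, which has no such suffix, had signals of 307.3 and 92.5 on the arrays labelled KO, against 595.2 and 633.6 on the LM arrays. Again both KO arrays were below both LM arrays, but the KO arrays stood in the opposite order, with KO replicate 1 the higher of them here and the lower of them on the first probe set. With every probe set fitted as its own row, this one differed by -1.78 ± 0.42 (limma adjusted p = 0.183) and the first by -1.41 ± 0.26 (limma adjusted p = 0.059). Of 26916 probe sets in that fit 53 passed (0.197%), and 0 of the 93 Rab probe sets did, while 6 of these (6.45%) lay at an unadjusted p below 0.05, against 7.7% of all probe sets. In this fit neither Rab4a probe set was called.

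Rab4b, the closest relative of Rab4a and also an early endosomal recycling GTPase, did not pass the threshold. Its probe set had signals of 1022.1 and 883.1 on the arrays labelled KO, against 972.3 and 860.3 on the LM arrays. The groups overlapped, and the log2 difference was 0.06 ± 0.18 with a 95% interval of -0.34 to 0.46, which does not reach the interval of Rab4a (-1.96 to -0.86). The difference between the responses of the 2 genes was not itself tested.

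**Figure D1:**
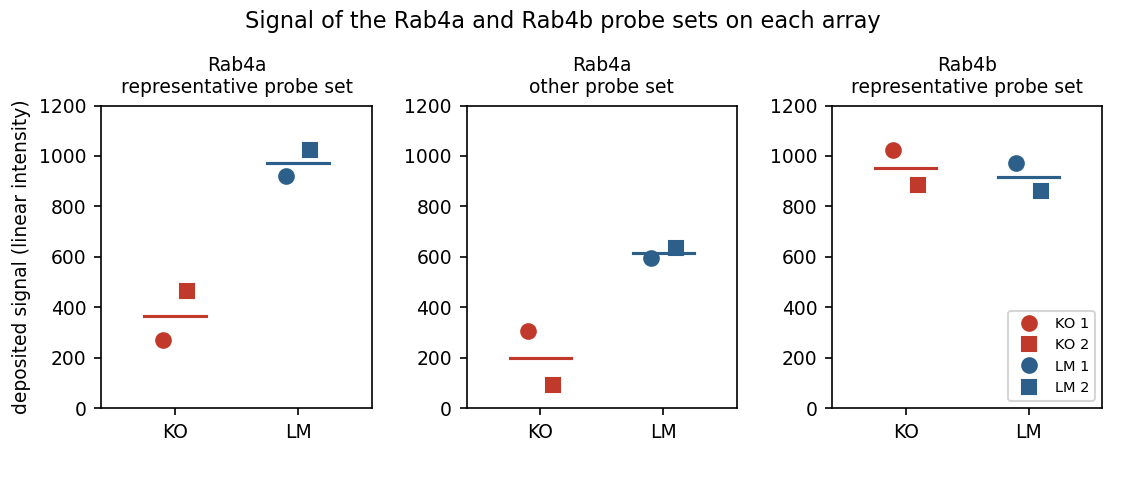
Deposited linear signal (y axis, from 0) on the 2 KO and 2 LM arrays for both Rab4a probe sets and the Rab4b probe set; circles are replicate 1, squares replicate 2 and lines group means. Both Rab4a probe sets sit lower on both KO arrays, at 92.5 to 463.4 against 595.2 to 1023.9 on the LM arrays, while the Rab4b points of the groups overlap.

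Of the 59 Rab genes, 41 exceeded background on at least 2 arrays and were tested, and 38 of these exceeded it on all 4. Rab4a was the 1 call among the 41, or 2.44%, against 0.275% of all 11255 genes tested. A single call is too few to read as a property of the family, and Rab4a was already known from these data when the genes were chosen. At an unadjusted p below 0.05 stood 2 Rab genes (4.88%), against 8.4% of all genes. Differences were above 0 for 20 genes and below 0 for 21, with a median of 0.00 both for the Rab genes and for all genes tested. The median absolute difference was 0.10 for the Rab genes and 0.17 for all genes, and 65.9% of Rab genes differed by less than 0.2, against 56.6% of all genes. Groups did not overlap for 7 Rab genes (17.1%), 3 higher and 4 lower on the arrays labelled KO, against 37.4% of all genes (19.1% higher and 18.3% lower). For 34 of the 41 Rab genes (82.9%) the 95% interval lay within a 2-fold difference either way, which held for 75.9% of all genes.

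**Figure D2:**
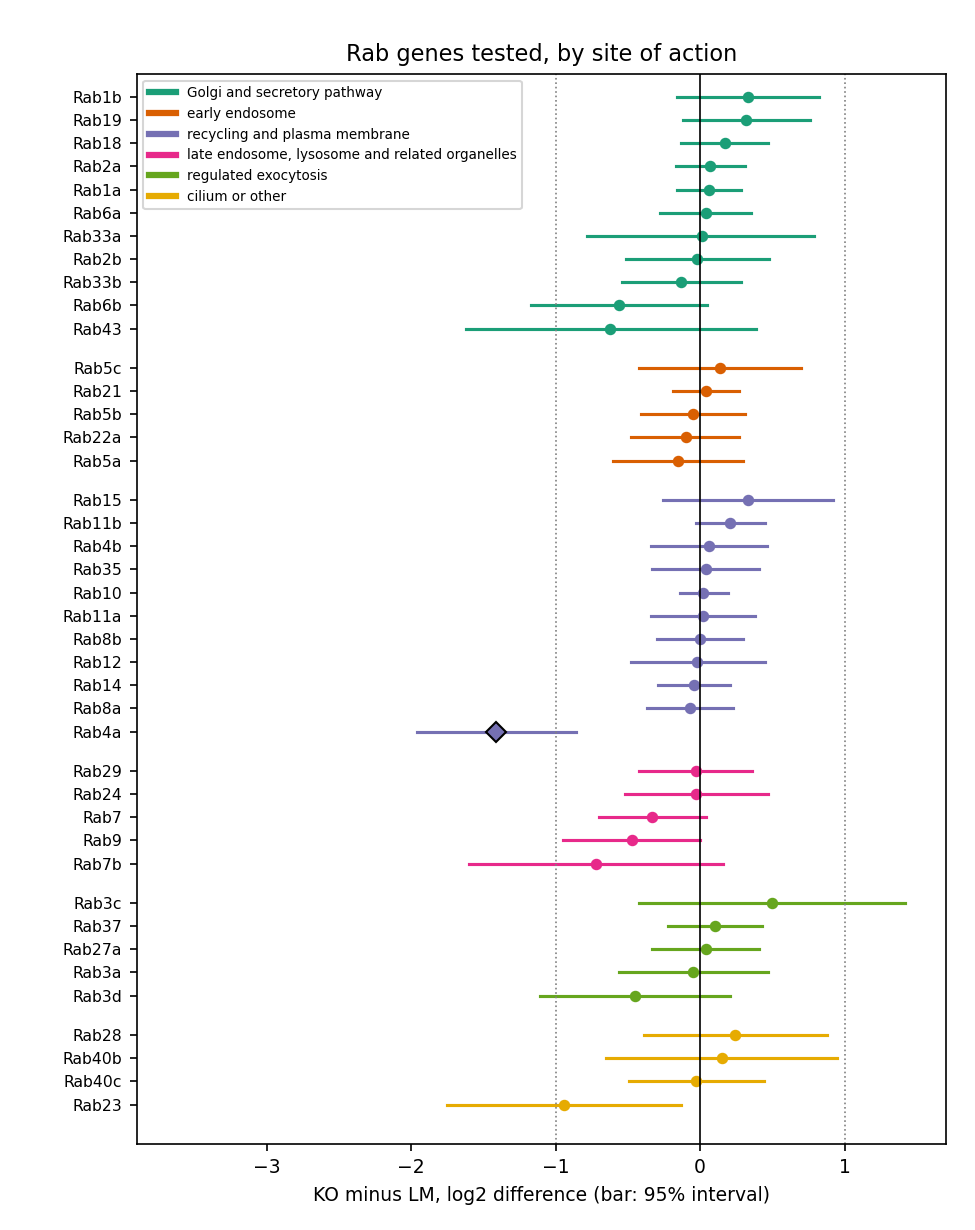
KO minus LM log2 difference (x axis) of the 41 tested Rab genes, grouped by site of action, with 95% intervals as bars; the diamond is the gene past the threshold and dotted lines mark a 2-fold difference. Rab4a stands at -1.41, and the interval of Rab23 is the other one that leaves out 0.

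**Figure D3:**
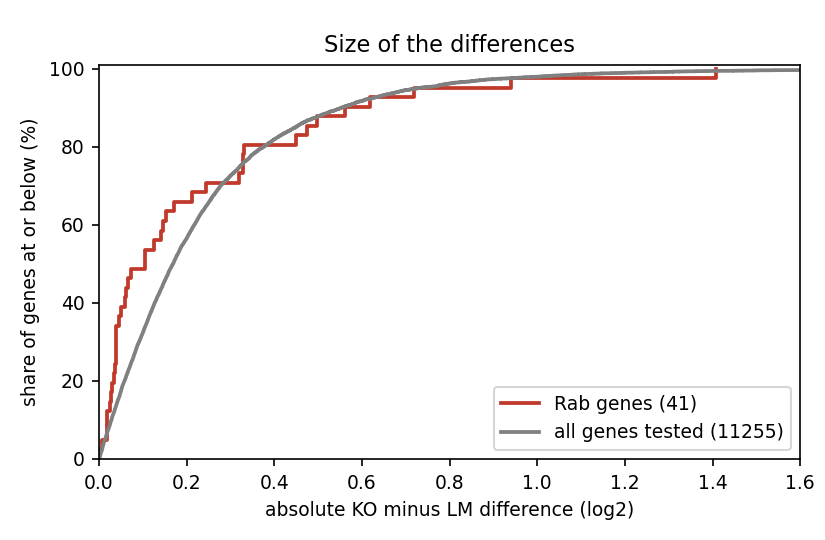
Share of genes (y axis, percent) whose absolute KO minus LM log2 difference is at or below the value on the x axis, for the 41 Rab genes and for all 11255 genes tested. The Rab curve is the higher of the 2 at small differences (65.9% against 56.6% at 0.2), and at 0.5 both groups have 12.2% of genes beyond.

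The recycling and plasma membrane Rabs other than Rab4a showed no difference past the threshold. Of the 13 genes of this group, Rab4a included, 11 were tested, 6 with a difference above 0 and 5 below, and 10 had an interval within 2-fold. Rab10, which carries cargo such as glucose transporters to the surface, had signals of 8945.6 and 8489.6 on the arrays labelled KO, against 8179.6 and 9060.5 on the LM arrays. The groups overlapped, and the interval of its difference ran from 90.6% to 114% of the LM signal, the narrowest among the tested Rab genes. Rab11a, the marker of the slow recycling endosome, had signals of 1230.1 and 1189.9 on the arrays labelled KO, against 1240.6 and 1162.6 on the LM arrays, a difference of 0.02 ± 0.17. Rab11b, its close relative, had 4258.8 and 3929.1 on the arrays labelled KO, against 3441.1 and 3725.7 on the LM arrays. Its groups did not overlap, but the difference of 0.21 ± 0.11 did not pass (limma adjusted p = 0.678). All 3 Rab11b probe sets had a difference above 0, at 0.21, 0.28 and 0.30.

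Rab8a and Rab8b carry cargo from the Golgi to the plasma membrane. Rab8a had signals of 2096.9 and 2220.8 on the arrays labelled KO, against 2189.8 and 2307.7 on the LM arrays, and Rab8b had 3044.2 and 3686.9 on the arrays labelled KO, against 3603.5 and 3176.4 on the LM arrays. Both overlapped between the groups, with differences of -0.07 ± 0.14 and 0.00 ± 0.14. Rab14, which acts between the Golgi and endosomes, had 3559.4 and 3305.9 on the arrays labelled KO, against 3387.1 and 3741.4 on the LM arrays. Its 7 probe sets, all of them tested, differed by -0.04 to 0.16. Rab35, a fast recycling Rab that also acts at the immunological synapse, had 1374.3 and 1276.9 on the arrays labelled KO, against 1183.4 and 1436.6 on the LM arrays, a difference of 0.04 ± 0.17. Rab15 did not overlap between the groups, with 295.5 and 269.7 on the arrays labelled KO and 239.4 and 199.1 on the LM arrays, but its difference of 0.33 ± 0.27 did not pass (limma adjusted p = 0.833). Rab12 differed by -0.02. Rab13, a Rab of tight junctions, and Rab25, the epithelial relative of Rab11a, were above background on 0 arrays.

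Early endosome Rabs showed no difference past the threshold. Of 8 genes 5 were tested, with a median of -0.05 and a range of -0.15 to 0.14, and all 5 intervals lay within 2-fold. Rab5 proteins control the fusion of early endosomes. Rab5a had signals of 975.3 and 691.8 on the arrays labelled KO, against 925.7 and 905.8 on the LM arrays. KO replicate 1 was the highest of the 4 arrays and KO replicate 2 the lowest, so the groups overlapped (-0.15 ± 0.21). Rab5b had 1300.2 and 1175.7 on the arrays labelled KO, against 1316.2 and 1258.2 on the LM arrays, and Rab5c had 320.2 and 399.5 on the arrays labelled KO, against 391.5 and 265.1 on the LM arrays. Neither separated the groups, with differences of -0.05 ± 0.16 and 0.14 ± 0.26. Rab21 and Rab22a, which act in integrin and early endosomal traffic, differed by 0.04 and -0.10. Of the 3 others, Rab17 was above background on 0 arrays and Rab20 on 1. The representative probe set of Rab31 exceeded background on 1 array and was not tested.

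The late endosome, lysosome and related organelle Rabs were the group in which every tested member, 5 of 5, had a difference below 0, although 0 passed the threshold. Their median was -0.33, and differences below 0 made up 49.7% of all genes tested. The members are few, and 1 of them, Rab7b, entered the test through the LM arrays alone. Rab7, which directs late endosomes to lysosomes, had signals of 4935.8 and 3177.0 on the arrays labelled KO, against 4407.7 and 5692.6 on the LM arrays. The low value was that of KO replicate 2, and the groups overlapped (-0.33 ± 0.17, limma adjusted p = 0.677). The other Rab7 probe set differed by -0.12 ± 0.11. Without KO replicate 2 the difference of Rab7 was -0.03, and without KO replicate 1 it was -0.63.

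Rab9, which returns mannose 6-phosphate receptors from late endosomes to the Golgi, had 640.5 and 491.4 on the arrays labelled KO, against 714.7 and 877.5 on the LM arrays. Its groups did not overlap, and the difference was -0.47 ± 0.22 with a 95% interval of -0.95 to 0.00 (limma adjusted p = 0.596). Rab7b, which acts between endosomes and the Golgi, had 83.2 and 82.2 on the arrays labelled KO, where it was not above background, against 164.2 and 117.6 on the LM arrays. Its difference was -0.72 ± 0.40 (limma adjusted p = 0.715), and its other tested probe sets differed by -0.85 and -0.04. Rab24 and Rab29, linked to autophagy and to lysosomes, differed by -0.03 each. The group median depended on single arrays. It was -0.12 without KO replicate 2, -0.63 without KO replicate 1, -0.48 without LM replicate 1 and -0.18 without LM replicate 2, with 4, 4, 5 and 3 of the 5 members below 0 in that order. With the filter that needs all 4 arrays, which drops Rab7b, it was -0.18. Rab32 and Rab38, known from melanosomes, and Rab9b were not tested, being above background on 1, 0 and 0 arrays.

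**Figure D4:**
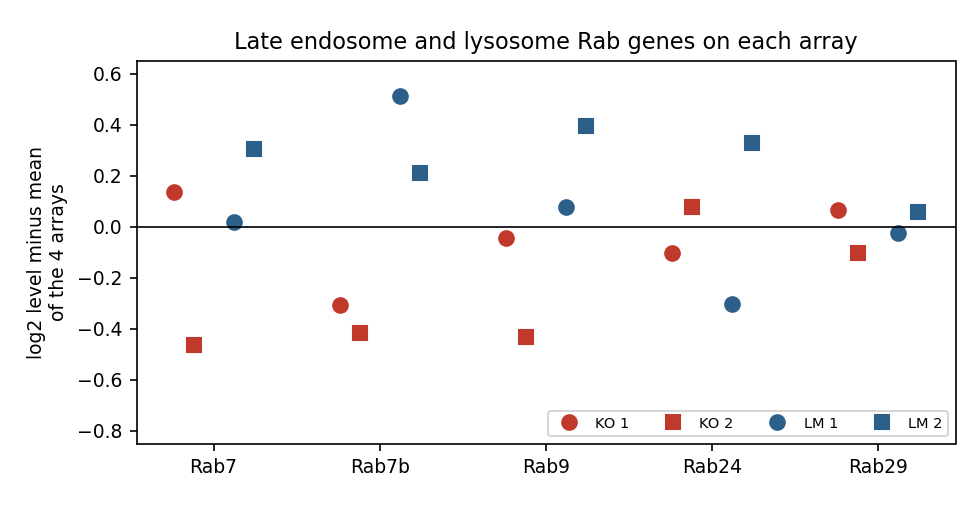
Normalised log2 level of each tested late endosome and lysosome Rab gene minus its mean over the 4 arrays (y axis), on each KO (red) and LM (blue) array; circles are replicate 1 and squares replicate 2. Rab9 separates the groups, as does Rab7b, which entered the test through the LM arrays alone. Rab7, Rab24 and Rab29 overlap, and KO replicate 2 is the lowest array for Rab7, Rab7b, Rab9 and Rab29.

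Golgi and secretory pathway Rabs were tested for 11 of 16 genes, 7 with a difference above 0 and 4 below, with a median of 0.04 and 0 past the threshold. Rab1a, which acts in transport from the endoplasmic reticulum to the Golgi, had signals of 5476.5 and 5767.2 on the arrays labelled KO, against 5542.4 and 5269.4 on the LM arrays (0.06 ± 0.10). Rab2a, which acts at the Golgi and in retrograde transport, had 5218.2 and 5581.3 on the arrays labelled KO, against 5434.3 and 4862.7 on the LM arrays (0.07 ± 0.11). The groups of both overlapped on these representative probe sets, with 95% intervals of -0.16 to 0.28 and -0.17 to 0.31. The other Rab1a probe sets differed by 0.12 (95% interval -0.27 to 0.52) and -0.35 (-1.01 to 0.31). The other tested Rab2a probe sets differed by -0.19 to 0.05. Rab6a, a Golgi Rab of retrograde transport, had 1880.2 and 1926.7 on the arrays labelled KO, against 1923.0 and 1782.0 on the LM arrays, a difference of 0.04 ± 0.15. Rab19 was higher on both KO arrays, at 701.5 and 865.9, against 587.2 and 667.4 on the LM arrays, without passing (0.32 ± 0.20, limma adjusted p = 0.764). Rab1b, Rab2b, Rab18, Rab33a and Rab33b differed by -0.13 to 0.33, and 0 of them passed.

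Rab6b, the Rab6 isoform best known from neurons, had signals of 1629.5 and 752.5 on the arrays labelled KO, against 1473.8 and 1828.4 on the LM arrays. KO replicate 2 was low and KO replicate 1 lay between the LM arrays, so the groups overlapped, and the difference was -0.56 ± 0.28 (limma adjusted p = 0.651). All 4 Rab6b probe sets had a difference below 0, at -0.26, -0.32, -0.56 and -1.21. Without KO replicate 1 the difference of the representative probe set was -1.10, and without KO replicate 2 it was -0.01. The value of this probe set thus rests on KO replicate 2. On the probe sets at -0.26 and -1.21 both KO arrays lay below both LM arrays, and on the one at -0.32 the groups overlapped. Rab43, another Golgi Rab, had 218.3 and 75.3 on the arrays labelled KO, against 164.1 and 246.9 on the LM arrays. This representative probe set too was low on KO replicate 2 alone, with a difference of -0.62 ± 0.46 (limma adjusted p = 0.811) that was 0.12 without that array. On another tested Rab43 probe set both KO arrays lay below both LM arrays on the normalised scale (-0.28 ± 0.40). Rab30, Rab34, Rab36, Rab39 and Rab39b were above background on 0 arrays.

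Rabs of regulated exocytosis, which dock and release secretory granules, were tested for 5 of 9 genes, with a median of 0.04 and 0 past the threshold. Rab27a had signals of 1384.1 and 1203.6 on the arrays labelled KO, against 1206.4 and 1330.7 on the LM arrays. The groups overlapped, and its 4 probe sets differed by 0.00 to 0.15. Rab3d, a Rab of secretory granules, had 277.3 and 229.0 on the arrays labelled KO, against 266.8 and 451.1 on the LM arrays (-0.45 ± 0.30, limma adjusted p = 0.785). Another Rab3d probe set, above background on all 4 arrays, had 99.8 and 186.5 on the arrays labelled KO, against 196.6 and 288.4 on the LM arrays. Both KO arrays lay below both LM arrays there, without passing (-0.76 ± 0.36, limma adjusted p = 0.653). A dimmer Rab3d probe set had 20.9 and 62.9 on the arrays labelled KO, where it was not above background, against 132.8 and 134.7 on the LM arrays. It entered the fit through the LM arrays alone, with a difference of -1.56 ± 0.54 (limma adjusted p = 0.484). The same holds of 1 Rab31 probe set, at 40.5 and 5.5 on the arrays labelled KO, against 124.8 and 97.8 on the LM arrays (-1.91 ± 0.67, limma adjusted p = 0.488). All of these additional probe sets were chosen after their values were seen. Rab3c had 154.0 and 158.6 on the arrays labelled KO, against 159.3 and 62.6 on the LM arrays, and overlapped (0.50 ± 0.42, limma adjusted p = 0.839). Rab3a and Rab37 differed by -0.05 and 0.10. Rab3b, Rab26, Rab27b and Rab44 were above background on 0 arrays.

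Of the 5 remaining genes 4 were tested. Rab23, a ciliary Rab that restrains Hedgehog signalling, had signals of 97.6 and 108.1 on the arrays labelled KO, against 163.0 and 257.2 on the LM arrays. Its groups did not overlap and its difference was -0.94 ± 0.37, the second largest in size among the tested Rab genes, but it did not pass over all genes (limma adjusted p = 0.493). The signals on the arrays labelled KO lay near background (97.4 and 83.4), and a second probe set, at 133.2 and 131.0 on the arrays labelled KO and 127.9 and 124.1 on the LM arrays, differed by 0.00 ± 0.37. Rab28 differed by 0.24, and Rab40b and Rab40c, which carry a SOCS box that binds Cul5, differed by 0.15 and -0.03. Rab42 was above background on 0 arrays.

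Probe sets of 1 gene did not always share a direction. Of the 42 Rab genes with at least 1 tested probe set, 27 had several, and in 14 of these all tested probe sets shared a sign. Rab4a, Rab11b, Rab6b, Rab7 and Rab43 were among them. So was Rab3d, but 1 of its probe sets described above entered through the LM arrays alone, so the sign of that probe set was fixed by the filter. The same holds of the representative probe set of Rab7b. The other tested Rab3d probe sets were above background on all 4 arrays. By contrast, Rab1a, Rab2a, Rab6a and Rab22a had probe sets on either side of 0. The median standard error of the tested Rab genes was 0.20, against 0.22 for all genes.

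The genes that control and read Rab proteins were taken from lists drawn up by role, and 0 of them passed the threshold. For membrane anchoring and cycling (prenylation, GDP dissociation inhibition and related factors) 13 genes were tested, 4 above 0 and 9 below, with a median of -0.09 and 0 at an unadjusted p below 0.05. The member with the smallest p was Rabif, a chaperone of Rabs without nucleotide, at 917.1 and 742.4 on the arrays labelled KO and 1115.5 and 968.9 on the LM arrays (-0.32 ± 0.19, limma adjusted p = 0.734). Exchange factors (31 tested) had a median of 0.04, with 17 above 0 and 14 below. Rinl, an exchange factor of the Rab5 group, had 2132.7 and 2036.4 on the arrays labelled KO, against 2676.0 and 2645.6 on the LM arrays. The groups did not overlap, yet -0.35 ± 0.13 did not pass over all genes (limma adjusted p = 0.458). GTPase activators (33 tested) had a median of 0.05, with 17 above 0 and 16 below. Their leading members by p were Tbc1d22b (0.58 ± 0.21, limma adjusted p = 0.427) and Tbc1d4 (0.50 ± 0.22, limma adjusted p = 0.571). Tbc1d4 is a substrate of Akt that restrains Rab10 in glucose transporter traffic.

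Rab effectors (39 tested) had a median of 0.01, with 20 above 0 and 19 below, and 4 (10.3%) at an unadjusted p below 0.05, against 8.4% of all genes. Rab11fip3, an effector that links Rab11 to recycling endosomes, had signals of 48.0 and 36.0 on the arrays labelled KO, where it was not above background, against 228.4 and 187.1 on the LM arrays. It was at least 2.17-fold lower, with the arrays labelled KO raised to their background level, and did not pass (limma adjusted p = 0.112). It entered the fit through the LM arrays alone, so its direction was fixed by the filter. With median centring its adjusted p was 0.023 in limma. Ehd1, an ATPase that shapes recycling tubules, had 1443.6 and 1889.2 on the arrays labelled KO, against 1026.0 and 1021.1 on the LM arrays. Both KO arrays were above both LM arrays (0.69 ± 0.18, limma adjusted p = 0.209). Proteins that bind Rab4 were named by role. Rabep1, shared with Rab5, differed by 0.21 ± 0.22 and Rbsn by -0.10 ± 0.21, and the groups of both overlapped. Both KO arrays lay below both LM arrays for Gripap1 (-0.22 ± 0.20) and above them for Rab11fip1 (0.27 ± 0.24). Rufy1, above background on 1 array, was not tested. It had signals of 35.1 and 32.3 on the arrays labelled KO, against 81.9 and 160.6 on the LM arrays.

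Cell cycle genes differed between the same arrays. Of 23 tested members 23 had a difference below 0 and 7 fell, with a median of -0.82, while 0.142% of all genes fell. Averaging the probe sets of a gene gave 4 calls in place of 7, and 0 passed with no filter on dim genes or with no intensity trend. Mki67, a marker of proliferating cells, had 3743.1 and 3979.3 on the arrays labelled KO, against 6674.1 and 7362.3 on the LM arrays (-0.86 ± 0.10, limma adjusted p = 0.00285). Its part in the Rab4a difference was not tested, and in sorted populations a smaller share of cells with a transcript and less of it in each cell cannot be told apart.

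The genes next to Rab4a in the RefSeq gene order (GRCm38.p6) were read for comparison. Of the 4 nearest protein-coding genes on each side 5 were tested, and 0 passed: Afg3l1 differed by 0.26, Gas8 by -0.12, Ccsap by -0.36, Nup133 by -0.05 and Abcb10 by -0.63 (limma adjusted p-values of 0.629 to 0.983).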

How the data were processed

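Per the labels, RNA of the 4 sorted samples was isolated with Trizol, amplified by WT-Ovation Pico and biotin-labelled. The deposited values are linear intensities, 1 for each probe set on each array, between 0.1 and 43129. The mean after trimming 2% at each end was 500.0 on each array, so from the values the deposited intensities were already on a common scale. Which program produced them, and with what background correction, is not given in the sources used.

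The 64 control probe sets were left out. Names came from the platform annotation, which gave 34945 probe sets 1 gene, 932 several and 9160 none, and 59 of 59 Rab symbols matched RefSeq. A pseudocount of 16 was added before taking log2, so changes of dim genes are understated, and arrays were quantile normalized. The probe set with the highest mean stood for its gene. Background was on each array the 95th percentile of 80 probe sets of olfactory or vomeronasal receptors (signals of 97.4, 83.4, 108.7 and 85.2 on KO 1, KO 2, LM 1 and LM 2). Genes above it on at least 2 arrays were tested, 11255 of 18193. Signals of different probe sets served to choose the one that stands for a gene and the brightest genes, and were summed over marker lists. They are not otherwise compared, and the number of arrays limits the precision.

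Differences are KO minus LM, fitted with limma 3.58.1 in R 4.3.3 (eBayes with an intensity trend), 2 residual and 9.96 prior degrees of freedom, two-sided p-values, Benjamini-Hochberg adjustment across every tested gene, and a threshold of 0.05. The fit was checked on simulated data. Tables were made with Python 3.11.15 and pandas 2.3.3, plots with matplotlib 3.10.9. The Rab genes, roles and lists were chosen with earlier results of these data known. Named were Rab genes at an unadjusted p below 0.05 or an absolute difference of at least 0.5, Rab4a and Rab4b, the classical members of each role, the 3 brightest, and from each list the members past the threshold and up to 4 with the smallest p. Others, given with fewer values, were chosen after their values were seen. Alternatives covered normalization, pseudocount, filter, moderation, probe set choice, a replicate block and each array left out. The main fit did not pair arrays by replicate number. Deviations of equal-numbered arrays from their group means correlated at -0.017 over the tested genes, which cannot show whether such arrays shared a batch.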

Additional observations from a re-analysis of the deposited data

How the results depend on the processing

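The Rab4a difference kept its direction under all 14 alternatives and passed the threshold under 11. It ended without the filter on dim genes (-1.41, adjusted p = 0.368 in limma) and without the intensity trend (-1.41, adjusted p = 0.407), where 0 Rab genes, 0 cell cycle genes and 0 of all genes passed while the Rab4a difference itself stayed the same, and when KO replicate 1 was dropped. Leaving out 1 array each gave -1.78 to -1.04 for Rab4a, and 40 to 98 calls over all genes against 31. In these fits the lone array is assumed to vary like the other group. Without KO replicate 1 the 1 Rab gene called was Rab6b in place of Rab4a. Averaging its probe sets gave Rab4a -1.59 and left 4 cell cycle calls against 7. Median centring gave 81 calls over all genes and 1 Rab effector, Rab11fip3 (adjusted p = 0.023 in limma). With the replicate block, Rab4a stayed at -1.41 (adjusted p = 0.0105).

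Fitted as separate probe sets, the representative one of Rab4a passed with no normalization (-1.42), median centring (-1.47), a pseudocount of 64 (-1.30), the stricter filter, robust moderation and the replicate block (-1.41 in each), and with each of the 4 arrays left out in turn (-1.78 to -1.04), KO replicate 1 included (adjusted p = 0.0369 in limma). The second probe set passed with median centring (-1.80) and on leaving out KO replicate 1 (-2.62), LM replicate 1 (-1.85) or LM replicate 2 (-1.70), and did not pass on leaving out KO replicate 2 (-0.95, adjusted p = 0.143 in limma). The causes were not tested.

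Of the 21 other named Rab genes, 7 kept their sign throughout and 14 changed it under some alternative, in 29 of 291 fits. A kept sign did not mean a kept size: averaging its probe sets took Rab23 from -0.94 to -0.02. Median centring turned Rab10 (-0.03), Rab11a (-0.04), Rab27a (-0.02), Rab35 (-0.03) and Rab6a (-0.01). Probe set means turned Rab14 (0.04), Rab1a (-0.05), Rab2a (0.00), Rab5b (0.03), Rab6a (-0.02) and Rab8b (0.00). With 1 array left out, Rab11a ran from -0.03 to 0.07, Rab14 from -0.08 to 0.00, Rab1a from -0.01 to 0.14, Rab27a from -0.06 to 0.13, Rab2a from -0.05 to 0.20, Rab35 from -0.10 to 0.17, Rab43 from -1.36 to 0.12, Rab4b from -0.05 to 0.17, Rab5a from -0.39 to 0.10, Rab5b from -0.11 to 0.01, Rab5c from -0.07 to 0.36, Rab6a from -0.03 to 0.10 and Rab8b from -0.15 to 0.15. The late endosome values without single arrays were added after seeing the data. The median of the Rab genes lay between -0.06 and 0.01 throughout. Signal over background limits the dim genes, such as Rab23, Rab7b and Rab43.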
